A study of Mus musculus with 8 samples.

Results

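The 9 genes described here encode esterases of the liver. They were taken from a table of 24411 mouse genes by their symbols, with earlier results of these data known. 4 of them, Ces2a, Ces2c, Ces2e and Ces2g, encode carboxylesterases of family 2, and Ces3a and Ces3b encode those of family 3. Aadac encodes arylacetamide deacetylase, and Pon1 and Pon3 encode paraoxonases. All 9 passed the filter on low counts that left 13633 genes for testing. Ces2b, Ces2f and Ces2h, with at most 16, 7 and 3 counts in a library, are not among the 9. The paper lists Ces2a among the genes most raised by TCS in its RNA-seq.

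Liver RNA came from neonatal mice that carry the human UGT1 locus in place of their own Ugt1 genes (hUGT1), on a C57BL/6 background. In hUGT1/Atf4F/F mice the Atf4 gene, which encodes a transcription factor of the stress response, is flanked by loxP sites and intact. In hUGT1/Atf4ΔHep mice it is removed by a Cre driven by the albumin promoter, which is active in hepatocytes and leaves the other liver cells with the gene. Pups of both genotypes received vehicle or triclosan (TCS), an antimicrobial agent, at 50 mg/kg by gavage on 4 consecutive days, with a first dose at 10 days of age by the account of the experiment and an age of 14 days by the sequencing methods. Each of the 4 groups had 2 libraries, each from the pooled RNA of 2 mice, so that n is 2 libraries and an SD is between pools. The 8 libraries held 11624143 to 25573210 counts. Atf4 itself was at 58.6 to 62.8 CPM (counts scaled to the size of the library) in the 4 hUGT1/Atf4F/F libraries and at 17.4 to 19.7 CPM in the 4 hUGT1/Atf4ΔHep libraries, as labelled. The summed CPM of 6 hepatocyte markers was 140362 to 153258 under vehicle and 123258 to 140692 under TCS. Over both genotypes 5 of the 6 were lower under TCS at an unadjusted p under 0.05, of which edgeR called 0 after adjustment, and DESeq2 called 2. Male and female pups were used, and the pools differed in 4 Y-linked genes and in Xist, an RNA of female cells. Xist was at 23.2 and 1.05 CPM in the hUGT1/Atf4F/F vehicle libraries and at 718 and 758 CPM in the TCS ones. In hUGT1/Atf4ΔHep mice it was at 778 and 4.50 CPM with vehicle and at 0.35 and 753 CPM with TCS. The 4 pools with little Xist were thus male or nearly so, and the other 4 were mixed. Relative to the highest library, the Y-linked share of counts was 0.98 and 1.00 in hUGT1/Atf4F/F vehicle libraries and 0.52 and 0.42 in TCS-treated ones. Sex makeup and TCS therefore cannot be told apart within that genotype. In hUGT1/Atf4ΔHep mice the share was 0.46 and 0.91 under vehicle and 0.96 and 0.52 under TCS, and the treatments were balanced. Comparisons over both genotypes take in the hUGT1/Atf4F/F libraries, so sex makeup is not balanced between treatments there either.

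Carboxylesterases are enzymes of the endoplasmic reticulum that cut ester, amide and thioester bonds with a catalytic serine. In liver they activate or clear drugs and environmental esters, and they also hydrolyse stored and dietary lipid. Arylacetamide deacetylase uses the same kind of serine for drugs with an acetamide or ester group, whereas paraoxonases are calcium-dependent lactonases that travel on high-density lipoprotein (HDL). Foreign compounds that activate the nuclear receptors CAR, PXR or PPARα are known to raise several carboxylesterase transcripts in rodent liver.

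The 6 carboxylesterase genes lie on chromosome 8 of the mouse (GRCm38, GENCODE M21), all on the plus strand. Ces2a spans chr8:104734003-104741634, Ces2c chr8:104847068-104854483, Ces2e chr8:104926260-104934672 and Ces2g chr8:104961718-104969537. Ces3a follows at chr8:105048601-105058413 and Ces3b at chr8:105083753-105093929. Aadac lies apart at chr3:60025717-60040160, and Pon1 (chr6:5168090-5193946) and Pon3 (chr6:5220852-5256286) neighbour each other on the minus strand of chromosome 6. The coding sequences of the 4 Ces2 genes were 81.3% to 85.1% identical in pairs, those of Ces3a and Ces3b 95.3%, and those of Pon1 and Pon3 62.2%. Between a Ces2 and a Ces3 gene identity was 55.6% to 57.8%.

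The stretch around the catalytic serine shows what the serine enzymes share and where they part. A search of the coding sequences for the codons of glycine, any residue, serine, alanine, glycine and glycine in a row found 1 match in each of 7 genes and none in Pon1 and Pon3. The 30 coding bases around it, from GENCODE M21, are given 5′ to 3′ with the serine codon in capitals, beginning with the transcript that rose under TCS.
Ces2a: atatttggagtcTCAgcaggaggtacaagt
Ces2e: atttttggagagTCAgcaggtggcacaagt
Ces2g: atttttggcgagTCAgcaggaggcataagc
Ces2c: atttttggcgagTCTgcaggtggcacaagt
Ces3a: atcttcggtaacTCTgctggaggcattatt
Ces3b: atcttcggtaacTCTgctggaggcatgatt
Aadac: gtgtctggagacAGTgctggtggaaactta
In the 6 carboxylesterase genes the whole window lies in exon 5 (chr8:104737404-104737433 for Ces2a and chr8:105051580-105051609 for Ces3a), and in Aadac in exon 4 (chr3:60038460-60038489). The windows of Ces3a and Ces3b differ at 1 of 30 bases and those of Ces2c and Ces2e at 2. Ces2a differs from the other Ces2 windows at 5 to 7 bases, from both Ces3 windows at 11 and from Aadac at 15.

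Per kilobase of exon, Pon1 was the most abundant of the 9 transcripts, with a mean of 296 CPM per kb over the 8 libraries. Aadac followed at 219.8 CPM per kb, Ces2a at 132 and Ces3a at 117. Ces2e was at 64.5, Ces2g at 19.2 and Pon3 at 16.2 CPM per kb. Ces3b and Ces2c were scarce, at 2.53 and 0.95 CPM per kb. Over the 8 libraries the ranges of Ces2a, Ces3a and Ces2e overlapped, as did those of Ces2g and Pon3 and those of Ces3b and Ces2c, so that these genes were not separated by their ranges. Within a library, however, Ces2a was above Ces2e, Ces2g above Pon3 and Ces3b above Ces2c in 8 of 8 libraries, whereas Ces3a was above Ces2e in 7 and below Ces2a in 5. Pon1 and Aadac stood above all others in every library.

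Ces2a was the 1 of the 9 transcripts that rose under TCS, by 2.21-fold in hUGT1/Atf4F/F and 2.17-fold in hUGT1/Atf4ΔHep mice (n = 2 libraries a group). The other carboxylesterase genes had positive fold changes that did not pass the test, with Ces3a the nearest, and Aadac, Pon1 and Pon3 were within a narrow interval around no change. The test was the quasi-likelihood test of edgeR over all 13633 genes, and a gene was called at an adjusted p (Benjamini-Hochberg) under 0.05.

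**Figure D1:**
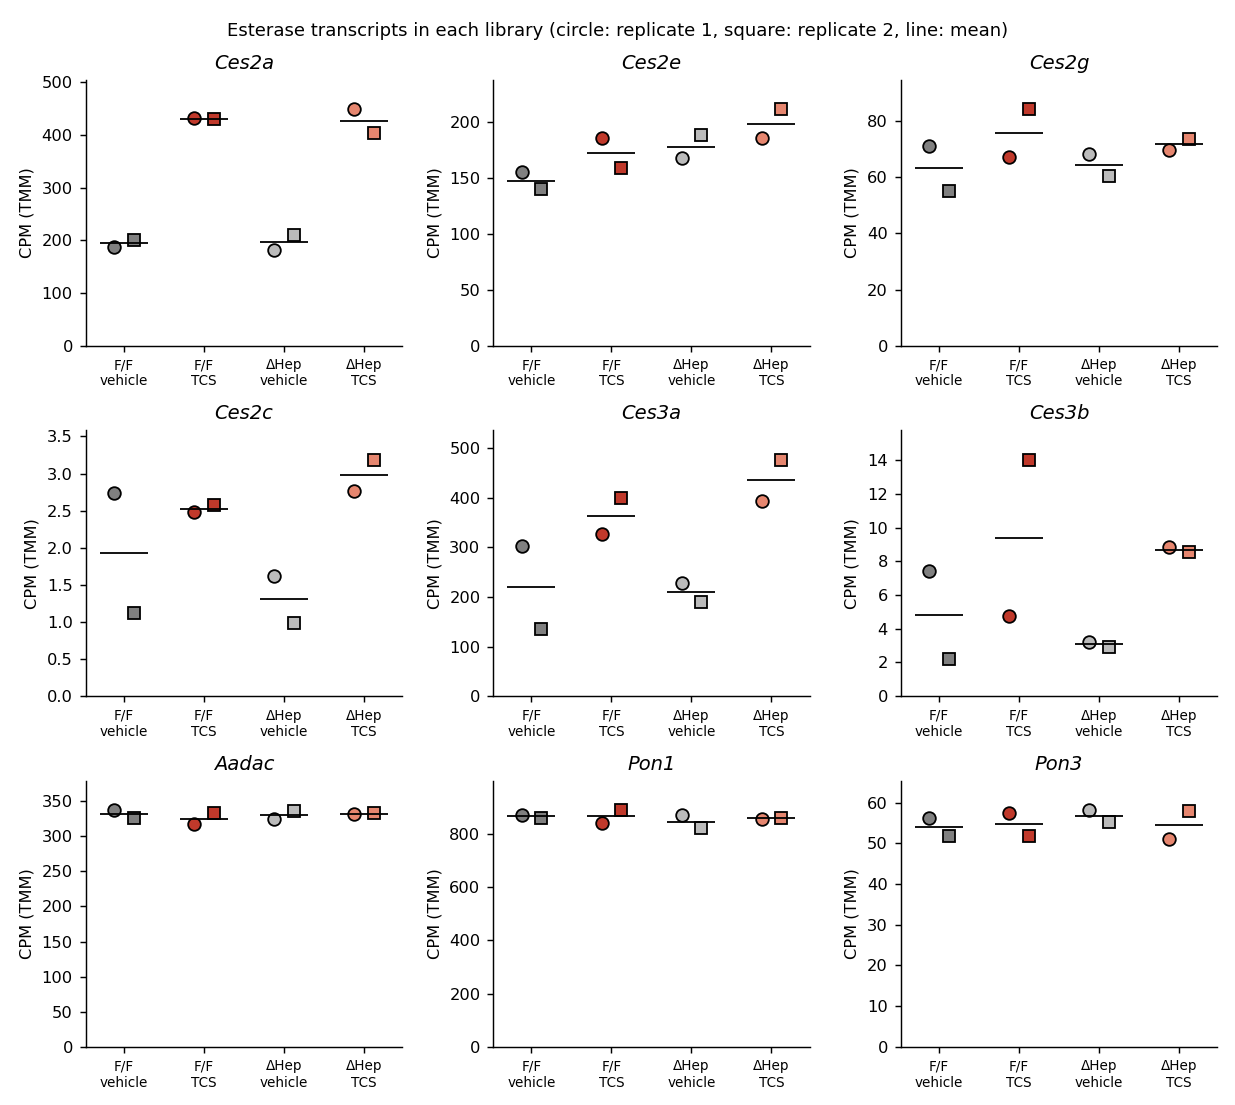
CPM after TMM normalization (y axis, linear and from 0, with a scale of its own in each panel) of 9 esterase genes in the 4 groups (x axis); a circle is replicate 1, a square is replicate 2 and a line is the mean of 2 libraries. The 4 TCS libraries of Ces2a sit between 404 and 448 CPM, all above the vehicle libraries at 182 to 210.4 CPM, whereas Aadac, Pon1 and Pon3 are level.

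Ces2a encodes a family 2 carboxylesterase that in mice acts on acylglycerols as well as on drugs. In hUGT1/Atf4F/F livers it was at 188.0 and 201 CPM with vehicle and 432 and 429.8 CPM with TCS. With Atf4 deleted it was at 182 and 210.4 CPM with vehicle and 448 and 404 CPM with TCS. Every TCS library was thus above every vehicle library. The log2 fold change was 1.15 (SE 0.09, adjusted p = 0.000974 from edgeR) in hUGT1/Atf4F/F mice, a 2.21-fold rise with a 95% interval of 1.93 to 2.54. In hUGT1/Atf4ΔHep mice it was 1.12 (SE 0.09, adjusted p = 0.000668), a 2.17-fold rise with an interval of 1.90 to 2.49. Averaged over the genotypes it was 1.13 (SE 0.06, adjusted p = 4.2e-05). The call held without each of the 8 libraries, with the largest adjusted p at 0.0227. Ces2a was also called where the sex makeup of the pools entered the fit, at log2 fold changes of 1.36 in hUGT1/Atf4F/F and 1.10 in hUGT1/Atf4ΔHep mice. In hUGT1/Atf4F/F mice the makeup follows the treatment, so this fit cannot separate sex makeup from TCS there. Between the pools of hUGT1/Atf4ΔHep mice with a high Y-linked share Ces2a was at 210.4 CPM with vehicle and 448 CPM with TCS, and between those with a low share at 182 and 404 CPM.

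Ces2a was 1 of 9 members called in each genotype, where 0.557% of all genes were called for TCS in hUGT1/Atf4F/F mice (0.513% as higher) and 0.675% in hUGT1/Atf4ΔHep mice (0.616% as higher). Averaged over the genotypes it was again 1 of 9, and 2.59% of all genes were called (2.02% as higher). DESeq2 called 1, 1 and 2 of the 9 in these comparisons. The paper had already reported Ces2a as raised by TCS, so these counts describe the 9 and are no test of them. At an unadjusted p under 0.05 the members numbered 2 in hUGT1/Atf4F/F mice (Ces2a and Ces3a) beside 9.73% of all genes, and 4 in hUGT1/Atf4ΔHep mice (also Ces2c and Ces3b) beside 11.5%. Over both genotypes they numbered 5 (also Ces2e) beside 17.2%. The TCS libraries lay above the vehicle libraries for 3 of the 9 in hUGT1/Atf4F/F mice, beside 19.7% of all genes, for 5 in hUGT1/Atf4ΔHep mice, beside 21.5%, and for 2 over both, Ces2a and Ces3a, beside 7%. The median log2 fold change of the 9 was 0.26 and 0.16, that of all genes −0.0036 and −0.0054. In bulk liver, fewer cells of a type and less RNA per cell cannot be told apart, and these values hold for whole tissue.

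**Figure D2:**
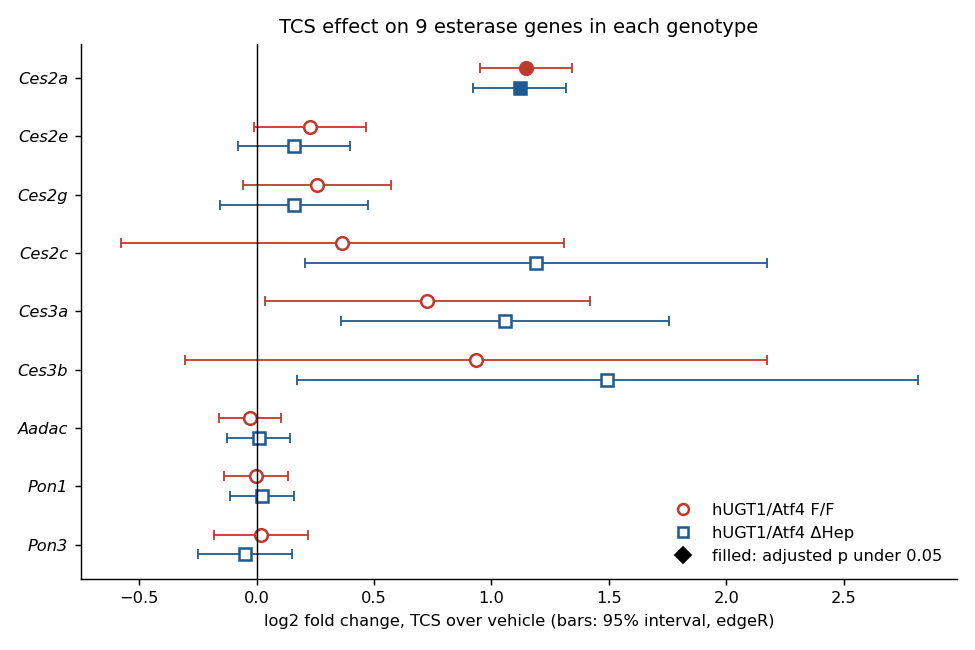
Log2 fold change of TCS over vehicle (x axis) with its 95% interval from edgeR for each of 9 genes (y axis), as circles for hUGT1/Atf4F/F and squares for hUGT1/Atf4ΔHep mice; filled symbols passed an adjusted p under 0.05. Ces2a stands at 1.15 and 1.12, the intervals of Ces2c, Ces3a and Ces3b are wide, and those of Aadac, Pon1 and Pon3 are narrow around 0.

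The other abundant family 2 transcripts, Ces2e and Ces2g, stayed close to their vehicle levels. Ces2e was at 155 and 139.8 CPM with vehicle and 186 and 159 CPM with TCS in hUGT1/Atf4F/F mice. The hUGT1/Atf4ΔHep libraries had it at 168 and 189 CPM with vehicle and 185 and 212 CPM with TCS. The TCS libraries lay narrowly above the vehicle libraries in the first genotype and overlapped with them in the second. The fold changes were 1.17 (95% interval 0.99 to 1.38) and 1.12 (0.95 to 1.32), which leaves out a change as large as that of Ces2a. Ces2g was at 71.3 and 55.2 CPM with vehicle and 67.3 and 84.3 CPM with TCS in hUGT1/Atf4F/F mice, and at 68.2, 60.5, 69.8 and 73.7 CPM in the same order in hUGT1/Atf4ΔHep mice. The treatments overlapped in the first genotype and were narrowly apart in the second. Its fold changes were 1.20 (0.96 to 1.49) and 1.12 (0.90 to 1.39).

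The makeup of the family 2 transcripts shifted toward Ces2a under TCS. Of the summed CPM per kb of the 4 Ces2 genes, Ces2a made up 48.5% to 55.7% in the 4 vehicle libraries and 63.1% to 68.5% in the 4 TCS libraries. The share of Ces2e was 33.9% to 39.6% under vehicle and 22.2% to 28.8% under TCS, while the sum went from 153 to 176 CPM per kb under vehicle to 266 to 279.6 under TCS. Neither share nor sum overlapped between treatments. Ces2a enters both shares and the sum, so they restate its rise and are no further result.

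Ces2c, which in mice encodes an acylglycerol and drug hydrolase, was scarce in these livers. It had 54 and 17 counts (2.74 and 1.12 CPM) with vehicle and 41 and 45 counts (2.48 and 2.57 CPM) with TCS in hUGT1/Atf4F/F mice. In hUGT1/Atf4ΔHep mice it had 26 and 15 counts (1.62 and 0.99 CPM) with vehicle and 32 and 83 counts (2.77 and 3.18 CPM) with TCS. The treatments overlapped in the first genotype, where the first vehicle library was the highest of the 4, and did not in the second. The log2 fold changes were 0.36 (SE 0.42) and 1.19 (SE 0.43, adjusted p = 0.343), with intervals from −0.58 to 1.31 and from 0.21 to 2.17. At these counts a difference between the genotypes was not detectable (log2 0.82, interval −0.54 to 2.19).

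Ces3a encodes an abundant carboxylesterase of liver, and its fold changes were the closest to the threshold after Ces2a. In hUGT1/Atf4F/F mice it was at 303 and 134 CPM with vehicle and 327 and 399 CPM with TCS. In hUGT1/Atf4ΔHep mice it was at 228 and 189 CPM with vehicle and 394 and 476 CPM with TCS. All 4 TCS libraries were above all 4 vehicle libraries, but the first vehicle library of hUGT1/Atf4F/F mice was close below the lowest TCS library and the second was far below it. The log2 fold change was 0.73 (SE 0.31, adjusted p = 0.491) in hUGT1/Atf4F/F mice and 1.06 (SE 0.31, adjusted p = 0.230) in hUGT1/Atf4ΔHep mice, and 0.89 (SE 0.22, adjusted p = 0.0741) over both. The fold change over both was 1.86 (95% interval 1.32 to 2.61), wider than that of Ces2a (2.19, 1.99 to 2.42).

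The call of Ces3a changed with the libraries and the tool used. Without the first hUGT1/Atf4F/F vehicle library it was called in both genotypes (log2 1.43, adjusted p = 0.0328, and log2 1.06, adjusted p = 0.0192) and over both (log2 1.25, adjusted p = 0.00269). Without the second it was called in hUGT1/Atf4ΔHep mice (adjusted p = 0.021) and over both (log2 0.66, adjusted p = 0.042), and the fold change in hUGT1/Atf4F/F mice was log2 0.26. Without 1 of the other 6 libraries Ces3a was not called, with adjusted p from 0.429 to 0.846 in hUGT1/Atf4F/F mice, from 0.237 to 0.651 in hUGT1/Atf4ΔHep mice and from 0.0872 to 0.269 over both. Within the hUGT1/Atf4ΔHep libraries alone the adjusted p was 0.0032, and DESeq2 gave 0.0477 over both genotypes. Between hUGT1/Atf4ΔHep pools of like Y-linked share the log2 ratio of TCS to vehicle was 1.06 at a high and 1.06 at a low share. With sex makeup in the fit the estimate in hUGT1/Atf4F/F mice was 0.36 (SE 0.45).

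Ces3b, its near-identical neighbour, was a minor transcript whose levels followed those of Ces3a only loosely. It was at 7.40 and 2.23 CPM with vehicle and 4.77 and 14.01 CPM with TCS in hUGT1/Atf4F/F mice, and at 3.24 and 2.91 CPM with vehicle and 8.83 and 8.56 CPM with TCS in hUGT1/Atf4ΔHep mice. The treatments overlapped in hUGT1/Atf4F/F mice, where both pairs of libraries were wide apart, and not in hUGT1/Atf4ΔHep mice, where both pairs were tight. The log2 fold changes were 0.94 (SE 0.55, adjusted p = 0.622) and 1.49 (SE 0.58, adjusted p = 0.372). In a fit of the 4 hUGT1/Atf4ΔHep libraries alone the second passed (log2 1.49, SE 0.19, adjusted p = 0.00756). Ces3a made up 97.6% to 98.6% of the summed CPM per kb of the pair under vehicle and 96.5% to 98.5% under TCS.

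**Figure D3:**
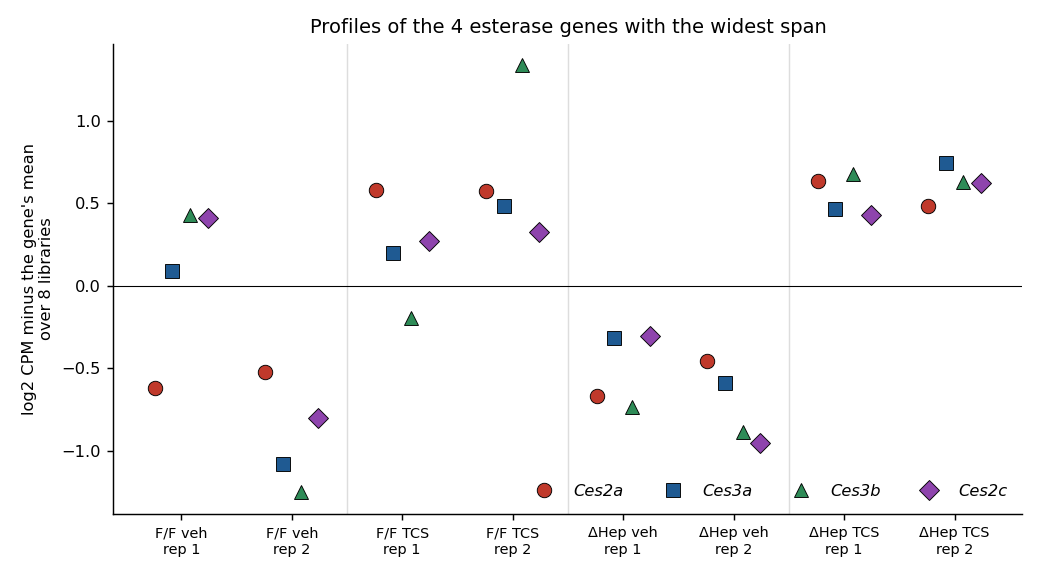
Log2 CPM minus the mean of the gene over 8 libraries (y axis) in each library (x axis, grouped by genotype and treatment) for Ces2a, Ces3a, Ces3b and Ces2c, the 4 members that spanned more than 1 on the log2 scale. Ces2a is low in all 4 vehicle libraries, whereas the other genes are near or above their mean in the first hUGT1/Atf4F/F vehicle library.

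Reads of some of these genes may be shared between copies, and the program that counted them was named neither in the labels nor in the methods. Of all stretches of 75 bases in the longest transcript, 14.8% of those of Ces2a also occur in the pseudogene Gm7208, which was not analysed here, and 25.9% of those of Ces2c occur in another gene, mostly the pseudogene Ces2d-ps. Ces3a shared 18.3% of its stretches with Ces3b, and Ces3b 15.4% with Ces3a. For Ces2e and Ces2g the share was 0.343% and 0.79%, and for Aadac, Pon1 and Pon3 it was 0. Ces2d-ps had at most 4 counts in a library. The levels of Ces2a, Ces2c, Ces3a and Ces3b are less certain on this account than those of the others, and how far shared reads moved them was not tested.

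Aadac, Pon1 and Pon3 were level over the 8 libraries. Aadac, which encodes the deacetylase that hydrolyses arylacetamide drugs, was at 337 and 327 CPM with vehicle and 318 and 333 CPM with TCS in hUGT1/Atf4F/F mice. With Atf4 deleted it was at 325 and 335 CPM with vehicle and 332 and 333 CPM with TCS. The 8 libraries overlapped throughout and spanned 0.085 on the log2 scale. The fold change was 0.98 (95% interval 0.89 to 1.08) in hUGT1/Atf4F/F mice and 1.01 (0.92 to 1.10) in hUGT1/Atf4ΔHep mice.

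Pon1, the HDL-bound lactonase that hydrolyses paraoxon, was at 872 and 859 CPM with vehicle and 842 and 888 CPM with TCS in hUGT1/Atf4F/F mice. The hUGT1/Atf4ΔHep libraries had it at 869.7 and 822 CPM with vehicle and 856 and 861 CPM with TCS. All groups overlapped, and the fold changes were 1.00 (95% interval 0.91 to 1.10) and 1.01 (0.92 to 1.12). Pon3, a lactonase of the same particle, was at 56.1 and 51.7 CPM with vehicle and 57.4 and 51.8 CPM with TCS in hUGT1/Atf4F/F mice, and at 58.1, 55.1, 51.1 and 57.9 CPM in the same order in hUGT1/Atf4ΔHep mice. It overlapped in all groups too, with fold changes of 1.01 (0.88 to 1.16) and 0.97 (0.84 to 1.11). Pon1 made up 94.5% to 95.2% of the summed CPM per kb of the pair over all libraries. No interval of these 3 genes reached below 0.84 or above 1.16 in either genotype.

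Without Atf4 in hepatocytes none of the 9 transcripts was called, under vehicle or under TCS, and none in the test of whether the response to TCS differed between the genotypes (edgeR). DESeq2 called none of the 9 in these comparisons either. At an unadjusted p under 0.05 edgeR gave 1 of the 9 under vehicle, Ces2e, beside 2.87% of all genes, none of the 9 under TCS beside 3.16%, and none in the test of the difference beside 2.07%. Of all genes 0.022% were called under vehicle, 0.022% under TCS and 0% in the test of the difference. Ces2e was at 155 and 139.8 CPM in hUGT1/Atf4F/F and at 168 and 189 CPM in hUGT1/Atf4ΔHep vehicle libraries, a fold change of 1.21 (95% interval 1.02 to 1.42), and at 1.15 (0.98 to 1.36) under TCS. For Ces2a the deletion gave a fold change of 1.01 (0.88 to 1.15) under vehicle and 0.99 (0.87 to 1.13) under TCS. The response of Ces2a to TCS differed between the genotypes by log2 −0.03 (95% interval −0.30 to 0.25), that of Ces3a by 0.33 (−0.65 to 1.31) and that of Ces3b by 0.56 (−1.25 to 2.37). As a ratio of fold changes this interval was 0.81 to 1.19 for Ces2a, 0.64 to 2.48 for Ces3a and 0.42 to 5.16 for Ces3b. A ratio as large as the rise of Ces2a under TCS lies outside the first alone.

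Along chromosome 8 the fold changes differed from gene to gene, with no test of these differences. From Ces2a to Ces4a, over 416 kb, 10 protein-coding carboxylesterase genes follow each other, and 7 had enough counts to be tested. Ces2a at one end was called in both genotypes, Ces2c was at 0.36 and 1.19, Ces2e and Ces2g in the middle had the smallest log2 fold changes at 0.16 to 0.26, and Ces3a, Ces3b and Ces4a beyond them had estimates of 0.73 to 1.86 that did not pass. Ces2b, Ces2f and Ces2h had at most 16, 7 and 3 counts in a library. Ces4a, with at most 34 counts, was at log2 1.30 (SE 0.87) in hUGT1/Atf4F/F and 1.86 (SE 0.95) in hUGT1/Atf4ΔHep mice. On chromosome 6 Pon2, the third paraoxonase gene, was at log2 −0.19 (SE 0.07) and −0.12 (SE 0.07) and was not called.

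**Figure D4:**
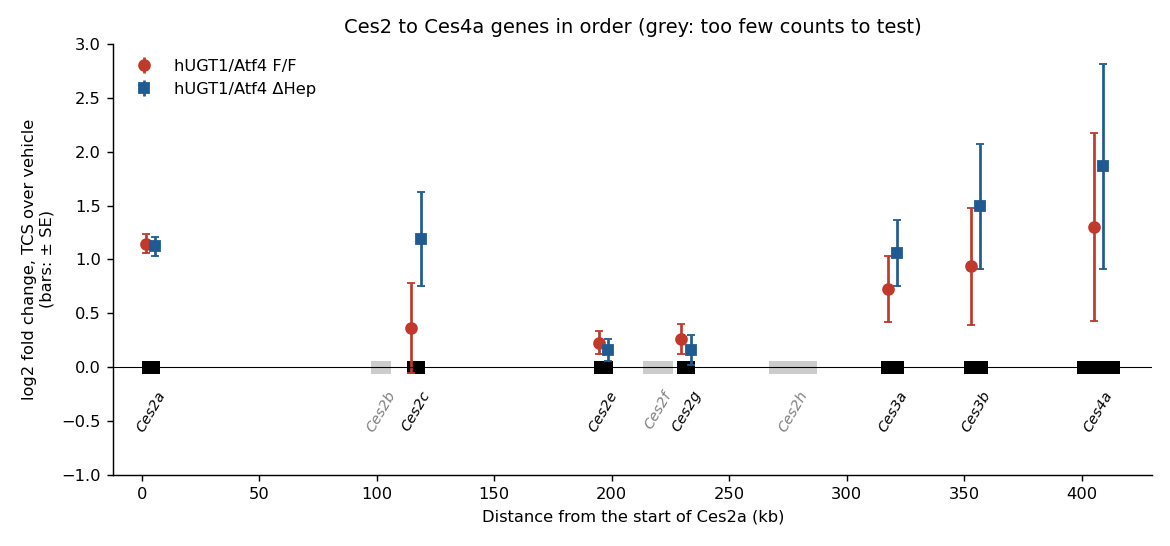
Log2 fold change of TCS over vehicle (y axis, bars are SE) of the protein-coding carboxylesterase genes in their order on chromosome 8 (x axis, distance in kb from the start of Ces2a; boxes on the line at 0 are the genes), as circles for hUGT1/Atf4F/F and squares for hUGT1/Atf4ΔHep mice. Ces2a at the left end is at 1.15 and 1.12, Ces2e and Ces2g are near 0.2, and the genes to the right are higher with wide bars.

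Of 13 other carboxylesterase genes in the table, mostly of the Ces1 family on the same chromosome, 7 could be tested. 4 of these rose and 0 fell in each genotype, with a median log2 fold change of 1.02 in hUGT1/Atf4F/F and 1.22 in hUGT1/Atf4ΔHep mice over the 7. DESeq2 called 4 of the 7 as higher in hUGT1/Atf4F/F and 3 in hUGT1/Atf4ΔHep mice. No gene of the 7 was lower at an unadjusted p under 0.05 or by DESeq2. The paper already lists Ces1d, Ces1f and Ces1g among the genes most raised by TCS in its RNA-seq. These counts were therefore largely fixed in advance and are no test. Ces1g was at 1.02 and 1.30, Ces1e at 1.02 and 1.22, Ces1d, a lipid hydrolase, at 0.78 and 0.81, and Ces1f at 2.53 and 3.15, with adjusted p values from 6.12e-05 to 0.00119. Ces1c, the abundant plasma carboxylesterase of mice, was at 0.0038 and 0.03 and was not called.

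Of 22 other esterases and lipid hydrolases of liver, 1 rose and 0 fell in each genotype, Abhd6, a monoacylglycerol hydrolase (log2 0.73, adjusted p = 0.0189, and 0.66, adjusted p = 0.0326). Over both genotypes 5 rose and 0 fell. At an unadjusted p under 0.05 edgeR gave 3, 2 and 3 of the 22 as lower in these comparisons. DESeq2 called 0, 0 and 1 as lower and 2, 2 and 6 as higher. The 5 that rose by edgeR were Abhd6 (log2 0.70), Cmbl (0.64, adjusted p = 0.00527), which activates an ester prodrug, Nceh1 (0.56, adjusted p = 0.0256), a cholesteryl ester hydrolase, Lipc (0.22, adjusted p = 0.0416), hepatic lipase, and Mgll (0.52, adjusted p = 0.0492), monoglyceride lipase. The median log2 fold change of the 22 was 0.08.

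The next list held 11 genes of HDL proteins and of membrane proteins that handle HDL, such as its receptor Scarb1. Of these 11, edgeR called 0 in either genotype, with median log2 fold changes of −0.02 and −0.05. At an unadjusted p under 0.05, 4 of the 11 passed in hUGT1/Atf4F/F mice and 3 in hUGT1/Atf4ΔHep mice, and DESeq2 called 1 and 0. Over both genotypes Apoa4, which encodes an apolipoprotein, fell by 0.86 on the log2 scale (adjusted p = 0.0248) as the 1 gene called, while 3 were lower at an unadjusted p under 0.05 and DESeq2 called 3 as lower. Of 10 genes of nuclear receptors and partner factors, Nr1i3, which encodes CAR, rose in hUGT1/Atf4ΔHep mice (log2 0.49, adjusted p = 0.0332) and was at 0.13 (SE 0.08) in hUGT1/Atf4F/F mice, and over both at 0.31 (adjusted p = 0.0247). Nr1i2 (PXR) was at 0.19 and 0.24, Ppara at −0.02 and 0.04 and Rxra at −0.09 and −0.10. Of 12 genes taken as reference for CAR, PXR and PPARα, edgeR called 11 as higher in each genotype. DESeq2 called 11 in hUGT1/Atf4F/F and 9 in hUGT1/Atf4ΔHep mice, and the median log2 fold changes over the 12 were 1.58 and 1.61. The paper already reports Cyp2b10, Cyp2c50, Ehhadh, Acaa1b and Abcc3 as raised by TCS in its RNA-seq. By quantitative PCR it also reports Cyp4a10, Cyp4a14 and Cyp3a11 as raised. These counts were therefore largely fixed in advance and are no test. Cyp2c50, a cytochrome P450 gene, was at log2 1.69 and 1.88, and Cyp2b10, the classic CAR target, at 2.88 and 2.86. Ehhadh, a peroxisomal PPARα target, was at 1.78 and 1.73. Abcc3, an export pump that the paper lists under the oxidative stress sensor NRF2, was at 1.42 and 1.48.

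Taken over both genotypes, the summed CPM of each list of markers for other cells or zones overlapped between treatments, while single markers in some lists differed. Within a genotype, sums were higher under TCS without overlap for the pericentral and acinar lists in hUGT1/Atf4ΔHep mice. They were lower without overlap for the endothelial and enterocyte lists in each genotype, and for the neutrophil list in hUGT1/Atf4F/F mice. In hUGT1/Atf4ΔHep mice this also held for the Kupffer, erythroid and stellate lists. The summed CPM of 6 pericentral hepatocyte markers was 5177 to 6673 under vehicle and 6530 to 7837 under TCS. Oat was the 1 of 6 called by edgeR (log2 0.81, adjusted p = 0.000423, over both genotypes). At an unadjusted p under 0.05, 4 of the 6 were higher over both genotypes and 0 lower, and DESeq2 called 2 as higher. The summed CPM of 7 pancreatic acinar markers was 8.11 to 35.5 under vehicle and 31.2 to 78.0 under TCS. In hUGT1/Atf4ΔHep mice it was 14.4 and 10.8 CPM with vehicle and 78.0 and 72.5 CPM with TCS. Over both genotypes 3 of these 7 rose by edgeR, Cela1 (log2 0.98), Cela2a (1.93) and Pnlip (4.05), with adjusted p from 0.0275 to 0.0402, and DESeq2 called 0. At an unadjusted p under 0.05 edgeR gave 7 of the 7 as higher over both genotypes. It gave 7 in hUGT1/Atf4ΔHep mice and 1 in hUGT1/Atf4F/F mice. The summed CPM of 7 neutrophil markers was 25.7 to 33.8 under vehicle and 12.3 to 26.7 under TCS, with 0 of 7 called by edgeR or DESeq2 and 4 of 7 lower at an unadjusted p under 0.05 over both genotypes. Of 5 periportal markers tested, Gls2 fell by 0.25 on the log2 scale (adjusted p = 0.0313 from edgeR, over both). Cyp2f2 of the same list went the other way, at log2 0.82 (unadjusted p = 0.00618 from edgeR, over both), and was not called. DESeq2 called 1 of the 5 as lower and 0 as higher. EdgeR called 0 of the cholangiocyte, Kupffer, erythroid, endothelial, stellate and enterocyte markers over both genotypes. At an unadjusted p under 0.05, 3 of 5 Kupffer, 3 of 5 endothelial, 3 of 6 stellate, 2 of 3 erythroid, 1 of 2 enterocyte and 0 of 5 cholangiocyte markers tested were lower under TCS, and DESeq2 called 1, 1, 2, 0, 0 and 0 of them. Of 5 enterocyte markers, Sis, Lct and Cdx2 had at most 6, 9 and 2 counts in a library. The part of these cells in the values of Ces2a and Ces3a was not tested.

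By the profile over 8 libraries, each centred on its own mean, the genes most like Ces2a among 12137 were Gstt2, with a root mean square difference of 0.07 on the log2 scale, Abcc4 (0.10) and Ces1g (0.11). Those most like Ces3a were Cyp2f2 (0.18), Lamb3 (0.21) and Mme (0.21). Cyp2f2, a cytochrome P450 gene of the periportal list at 123 to 377 CPM, was also among the 3 genes most like Ces2c (0.23) and Ces3b (0.39) and was not among those of Ces2a. It had log2 fold changes of 0.78 and 0.86 under TCS and was not called. Between members, Ces3a differed from Ces2c by 0.21, from Ces2a by 0.39 and from Ces3b by 0.41, and Aadac from Pon1 by 0.04. The points share their libraries, and Ces2c and Ces3b had only 15 to 83 and 34 to 245 counts.

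The 250 bases before the start of transcription are shown for Ces2a, which rose, and Aadac, which was level, because the targets named above respond to receptors that bind pairs of a half-site like AGGTCA. The sequences are from RefSeq on GRCm38.p6, plus strand, at chr8:104733753-104734002 and chr3:60031538-60031787, and capitals mark AGGTCA. RefSeq starts Aadac within the longer span of GENCODE.
Ces2a: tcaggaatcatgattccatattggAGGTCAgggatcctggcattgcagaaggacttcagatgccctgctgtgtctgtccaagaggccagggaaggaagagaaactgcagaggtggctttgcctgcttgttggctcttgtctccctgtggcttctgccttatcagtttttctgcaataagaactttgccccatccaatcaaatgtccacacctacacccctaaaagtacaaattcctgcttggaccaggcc
Aadac: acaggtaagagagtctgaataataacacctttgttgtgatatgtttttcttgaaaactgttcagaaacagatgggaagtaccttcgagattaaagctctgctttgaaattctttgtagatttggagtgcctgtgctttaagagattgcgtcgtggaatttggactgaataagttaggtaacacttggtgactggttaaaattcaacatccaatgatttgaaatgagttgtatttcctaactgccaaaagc
8 of the 9 genes had an entry, of 250 bases before to 50 after the start. On both strands, AGGTCA was found in Ces2a, at −226 to −221 from the start, and in Pon3, at 27 to 32 in reverse, and 16.3% of 32851 RefSeq promoters of this length hold it. TATAAA was found in Ces3b alone of the 8, at −30 to −25, and in 13.6% of all promoters. TGACNNNGC, the core of the antioxidant response element, was found in Pon3, overlapping its AGGTCA, and in 12.4% of all. AGTTCA (14% of all), TGTTTAC (3.65%), TTGCGCAA (0.183%) and direct repeats of AGGTCA spaced by 1 or 4 bases (0.0396% and 0.0152%) were found in none of the 8. A match describes these letters and no binding site.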

How the data were processed

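Total liver RNA was pooled from 2 mice per library and made into stranded poly(A) libraries. The authors deposited raw counts per gene for 8 libraries, with no normalization applied. They also deposited scaled counts and 3 tables of fold changes and p-values of their own comparisons, which were not used. Per the labels and methods, reads were demultiplexed with bcl2fastq 2.20 and aligned to mm10 with STAR 2.7.9a. Neither the labels nor the methods name the counting program or the annotation. Genes were filtered with filterByExpr (count minimum 10, total minimum 15), scaled by TMM and fitted with the quasi-likelihood test of edgeR 4.0.16 (R 4.3.3), with 1 mean per group over all 8 libraries (4 residual degrees of freedom). P-values were adjusted by Benjamini-Hochberg over 13633 genes. CPM carried TMM scaling, CPM per kb used exon length, and intervals are at 95%. The libraries of a group differed by more than counting error (chi-square per gene 7.48 to 16.8). Nothing in the labels pairs libraries across groups, and p-values measure the spread between pools. Profiles were compared as log2 CPM (prior count 2). Named genes were the 9 members, up to 4 genes of each list described with the smallest unadjusted p, and the 3 genes most like each member that spanned over 1 on the log2 scale. Ces1c, Mgll, Pon2, Ppara, the neighbours of the members and the genes with few counts lay outside this rule and were chosen after their values were seen. Acaa1b, Cyp4a10, Cyp4a14 and Cyp3a11 are named only as genes that the paper reports. The members, the gene lists and the rule were chosen with earlier results of these data known. Alternatives were a replicate block, RLE factors, no filter, the libraries of a comparison alone, an adjusted p under 0.01, DESeq2 1.42.0, sex makeup as a covariate and each library left out. The edgeR script was tested on simulated data. Sequences and coordinates came from GENCODE M21 (GRCm38) and RefSeq (GRCm38.p6).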

Additional observations from a re-analysis of the deposited data

How the results depend on the processing

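Ces2a was called for TCS in both genotypes, and over both, under every alternative and without each library. The number of the 9 members called went from 1 to 2 in hUGT1/Atf4ΔHep mice and to 2 over both genotypes without the filter, to 3 in hUGT1/Atf4ΔHep mice with the libraries of the comparison alone, and to 2 over both with DESeq2. Without single libraries it was 1 to 2 in each of these 3 comparisons, and the added member was Ces3a when a hUGT1/Atf4F/F vehicle library was left out. The cause was not tested.

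With sex makeup as a covariate, which follows the treatment in hUGT1/Atf4F/F mice, these log2 fold changes turned. For TCS, Ces2c (−0.14) and Pon3 (−0.11) turned in hUGT1/Atf4F/F mice and Pon1 (−0.017) over both genotypes. For the deletion under vehicle, Ces2g was −0.096, Aadac 0.0019 and Pon3 −0.0071, and for the deletion under TCS, Ces2g was 0.020, Ces3b 0.038 and Pon1 0.021. For the difference in response Ces2g was 0.12 and Pon3 0.070. None of these was called before or after, and the cause was not tested.

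Without single libraries, log2 fold changes that crossed 0 had these ranges. For TCS in hUGT1/Atf4F/F mice Ces2c was −0.12 to 1.17, Ces3b −0.040 to 2.07, Aadac −0.063 to 0.0048, Pon1 −0.040 to 0.035 and Pon3 −0.059 to 0.090. In hUGT1/Atf4ΔHep mice Aadac was −0.013 to 0.033, Pon1 −0.017 to 0.062 and Pon3 −0.15 to 0.031, and over both Aadac was −0.028 to 0.0073, Pon1 −0.010 to 0.030 and Pon3 −0.066 to 0.023. For the deletion under vehicle Ces2a was −0.098 to 0.11, Ces2c −1.06 to 0.23, Ces2g −0.15 to 0.22, Ces3a −0.54 to 0.64, Ces3b −1.26 to 0.46, Aadac −0.030 to 0.016 and Pon1 −0.074 to 0.0058. For the deletion under TCS Ces2a was −0.091 to 0.061, Ces2g −0.23 to 0.094, Ces3b −0.69 to 0.86, Aadac −0.0017 to 0.065, Pon1 −0.047 to 0.027 and Pon3 −0.092 to 0.086. For the difference in response Ces2a was −0.13 to 0.084, Ces2e −0.18 to 0.051, Ces2g −0.30 to 0.072, Ces3a −0.37 to 0.80, Ces3b −0.58 to 1.53, Pon1 −0.016 to 0.064 and Pon3 −0.16 to 0.015.

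Over all genes, the 76 called for TCS in hUGT1/Atf4F/F mice became 139 without the filter, 33 with the comparison's libraries alone, 35 at an adjusted p under 0.01, 167 with DESeq2, 20 with the covariate and 33 to 165 without single libraries. The 92 in hUGT1/Atf4ΔHep mice became 200, 189, 40 and 219 in the first 4 of these and 11 to 107 without single libraries. The 353 over both became 538 without the filter, 108 at 0.01, 111 with the covariate and 107 to 363 without single libraries. For the deletion, the 3 under vehicle became 5 with DESeq2 and 5 with the covariate, the 3 under TCS became 5 without the filter, 7 with DESeq2 and 2 to 31 without single libraries, and the 0 for the difference in response became 1 with the covariate.

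With a replicate block 64, 72 and 249 genes were called for TCS in hUGT1/Atf4F/F mice, in hUGT1/Atf4ΔHep mice and over both, and Ces2a kept log2 fold changes of 1.15, 1.12 and 1.13. The correlation of the difference between replicates 1 and 2 over genes was −0.43 to 0.37 between groups, the numbers are labels only, and the block changed no call of a member.

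With 2 pools a group, Ces2c and Ces3b at 15 to 83 and 34 to 245 counts and Ces3a with its wide vehicle pools are the least certain of the 9, while Aadac, Pon1, Ces2a and Pon3 had narrow intervals.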
